A study of Mus musculus with 8 samples.

Results

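The ADAMTS genes encode secreted zinc metalloproteinases of the extracellular matrix, and 10 of them (Adamts1, Adamts2, Adamts4, Adamts5, Adamts6, Adamts9, Adamts10, Adamts12, Adamts15 and Adamts17) were followed here through RNA-seq of primary mouse cortical astrocytes. They were taken by gene symbol from the 54146 genes of the deposited tables. Adamts9 was selected on measured values of these libraries, namely a weaker TNF-α induction in GSTM1 KD astrocytes, so its values are given as a description and it was given no test. The other 9 genes were tested. The astrocytes came from neonatal C57BL/6 cortex and carried a lentiviral shRNA vector, either non-silencing (control KD) or directed against Gstm1 (GSTM1 KD), a glutathione S-transferase. Cells were left without stimulation (basal) or received TNF-α at 50 ng/ml for 6 h, which gave 4 groups of 2 biological replicates and 8 libraries in all. Virus was added to mixed glia, infected cells were selected with puromycin, and astrocytes were enriched afterwards, so all 4 groups carry a virus and a selection step. The labels do not separate different shRNA sequences against Gstm1, so the effects of single sequences cannot be told apart.

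ADAMTS proteases carry a prodomain that furin-like convertases remove and thrombospondin repeats that bind matrix. The aggrecanase branch (ADAMTS1, ADAMTS4, ADAMTS5, ADAMTS9 and ADAMTS15 among the genes here) cleaves the hyalectans, which are aggrecan, versican, brevican and neurocan, the proteoglycans that organise hyaluronan around neurons and their synapses. ADAMTS2 trims fibrillar procollagen, ADAMTS6, ADAMTS10 and ADAMTS17 are tied to fibrillin microfibrils, and ADAMTS12 cleaves cartilage oligomeric matrix protein. In brain, astrocytes are one source of several of these enzymes, and ADAMTS4 in particular is known for its rise in inflamed nervous tissue.

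The libraries held 17349682 to 34434615 counts. Gstm1 was at 231 and 377 CPM (counts relative to the TMM-scaled library total) in control KD at the basal level against 29.0 and 31.4 in GSTM1 KD, and at 209 and 391 against 24.3 and 23.3 after TNF-α stimulation, so every library carried the Gstm1 level its label gives. All 8 genes of a TNF-α response list (such as Nfkbia, Icam1 and Vcam1) were higher after TNF-α in control KD and 7 of 8 in GSTM1 KD, in edgeR, Cxcl1 being the one that did not pass there (log2 2.38, adjusted p = 0.165), while DESeq2 called all 8. The astrocyte markers Gfap and Aqp4 were abundant in every library, at no fewer than 21377 and 20888 counts. The 8 microglial markers summed to 1.10 to 7.93 CPM per library, with P2ry12 at 0 to 2 counts and C1qa at 4 to 78. The 8 endothelial markers summed to 4.89 to 10.2 CPM, with Cldn5 at 0 counts and Cdh5 at 17 to 218.

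The promoters of Adamts1 and Adamts9 are shown because Adamts1 had the lower level in GSTM1 KD in both states while Adamts9 was the gene with the TNF-α response that led to the selection. Each run is the 250 bases upstream of the RefSeq start site (GRCm38.p6, minus strand of the chromosome, written 5′ to 3′), and the promoters of 5 of the 10 genes were matched by symbol in that table. Capitals mark matches on either strand to the NF-κB consensus, the AP-1 motif TGANTCA, the GC box GGGCGG or the TATA box TATAAA.
Adamts1, chr16:85803114-85803363: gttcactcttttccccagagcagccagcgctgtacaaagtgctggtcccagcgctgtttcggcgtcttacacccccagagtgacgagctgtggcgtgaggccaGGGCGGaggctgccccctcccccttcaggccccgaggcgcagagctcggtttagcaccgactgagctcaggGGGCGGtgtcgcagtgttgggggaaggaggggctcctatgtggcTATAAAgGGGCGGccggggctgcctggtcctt
Adamts9, chr6:92943535-92943784: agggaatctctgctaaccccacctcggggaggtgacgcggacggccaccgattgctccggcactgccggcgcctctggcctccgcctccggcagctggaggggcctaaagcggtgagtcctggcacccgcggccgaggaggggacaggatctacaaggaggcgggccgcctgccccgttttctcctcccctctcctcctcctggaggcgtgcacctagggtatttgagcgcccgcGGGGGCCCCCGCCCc

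In the Adamts9 window there was one NF-κB consensus match, 15 to 6 bases before the start site, and it shares bases with a GC box match at 7 to 2 bases. In the Adamts1 window there were 3 GC boxes, beginning 147, 76 and 25 bases before the start site, and a TATA box beginning at 32 bases. No AP-1 match lay in any of the 5 promoters. Over all 32851 promoters of the table, with the same 250 bases, 7.25% held the NF-κB consensus, 6.75% the AP-1 motif, 32.7% the GC box and 12.4% the TATA box. The G and C content was 65.6% for Adamts1 and 71.2% for Adamts9, against a median of 52.4% over all promoters. These matches are a description of the letters and not of a factor at work in these cells.

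Compared per length, as TPM (transcript shares after division by effective length), the 10 genes spanned a wide range. Averaged over the 8 libraries, Adamts1 had the top level at 88.8 TPM, followed by Adamts9 at 17.3 TPM and Adamts5 at 9.57 TPM. Adamts2, Adamts4 and Adamts10 were at 3.99, 3.15 and 2.5 TPM, and Adamts6, Adamts17, Adamts12 and Adamts15 at 1.06, 0.88, 0.72 and 0.13 TPM. The effective lengths that enter TPM varied between libraries by 2.53-fold for Adamts10 and 5.16-fold for Adamts17, so the TPM of those 2 genes is unstable. The order of the middle genes was not the same in every group. After TNF-α in control KD, Adamts4 stood at 6.28 ± 1.65 TPM and Adamts2 at 3.29 ± 0.88 TPM (SD, n = 2), while without stimulation Adamts10 at 3.55 ± 1.48 TPM was above both, within its spread. Within a gene, levels are therefore given below as CPM.

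**Figure D1:**
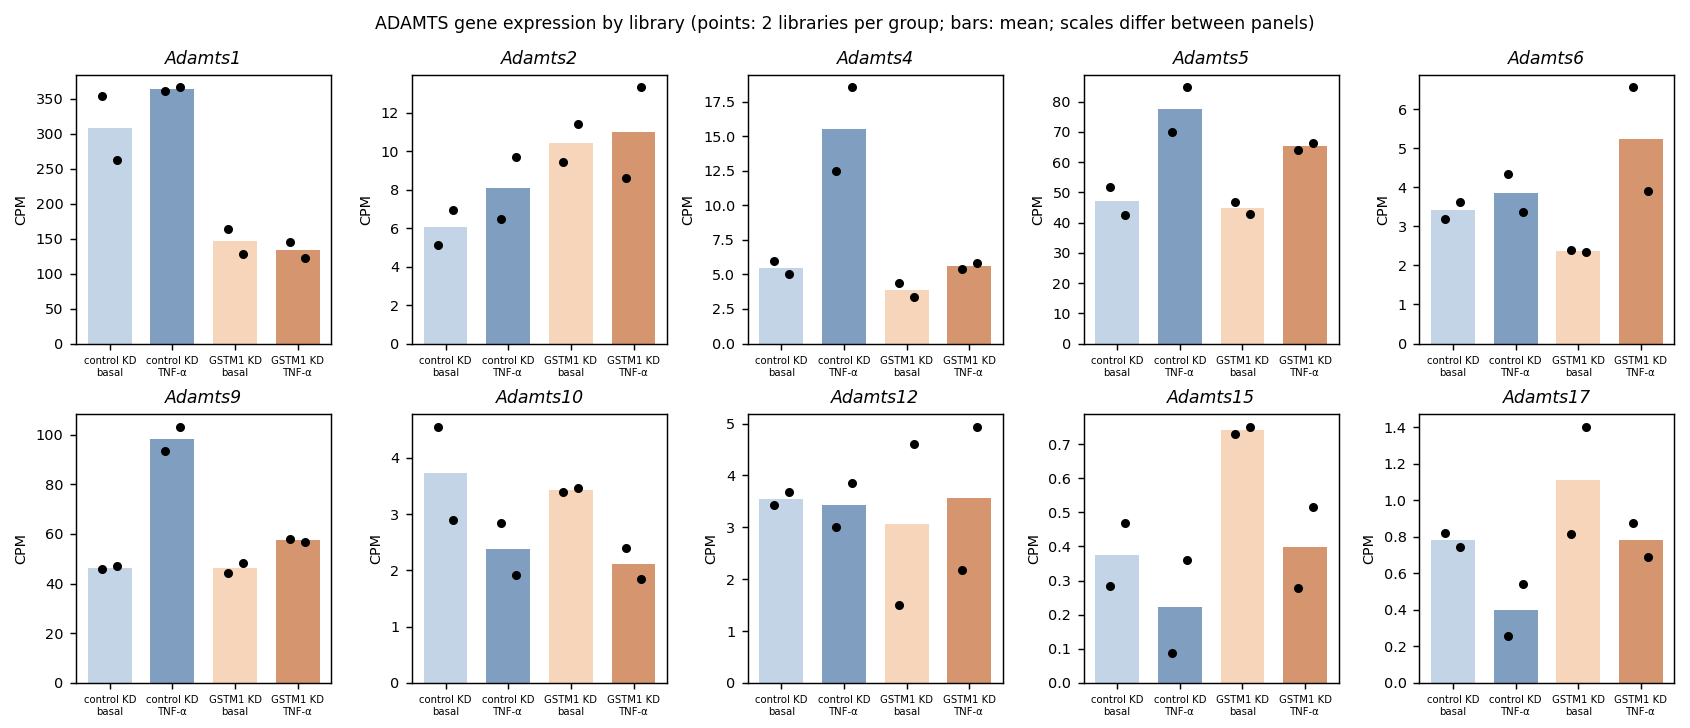
Expression (CPM, vertical axis, from 0, with a scale of its own in each panel) of the 10 ADAMTS genes in the 4 groups, with a point for each of 2 libraries and a bar for their mean. Adamts1 was at 123 to 164 CPM in the GSTM1 KD libraries and at 262 to 366 CPM in the control KD libraries, and Adamts9 stood highest in control KD after TNF-α.

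Among the aggrecanases, Adamts9 (ENSMUSG00000030022.14, chr6:92772699-92943492, minus strand) encodes a large versican-cleaving and aggrecan-cleaving protease. It was at 45.8 and 47.0 CPM in the 2 control KD basal libraries and at 44.5 and 48.5 CPM in the GSTM1 KD basal libraries. After TNF-α it stood at 93.5 and 103 CPM in control KD and at 58.1 and 56.7 CPM in GSTM1 KD. The basal groups overlapped, both TNF-α groups lay above both basal groups, and the control KD TNF-α libraries lay above all others.

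In log2 terms the Adamts9 level differed between GSTM1 KD and control KD by 0.00 (SE 0.108) at the basal level and by -0.80 (SE 0.097) after TNF-α stimulation. Its TNF-α response measured 1.08 (SE 0.088) for control KD cells and 0.30 (SE 0.089) for GSTM1 KD cells, a difference of -0.78 (SE 0.125) between the responses. That difference is what the gene was selected for. Exons of Adamts9 overlap those of A730049H05Rik and Gm15737 on the opposite strand. The library kit keeps strand, but whether the counting used it is not given in the sources used here. A730049H05Rik went from a basal 40.7 ± 0.09 CPM to 36.3 ± 3.50 CPM with TNF-α in control KD (SD, n = 2), and from 27.3 ± 2.98 to 22.6 ± 3.70 CPM in GSTM1 KD. Its mean was lower after TNF-α than before it in both knockdowns, and lower in GSTM1 KD than in control KD in both states. The part of its reads in the Adamts9 values was not tested. Gm15737 had 0 or 1 counts in every library.

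Adamts1 (ENSMUSG00000022893.14, chr16:85793827-85803113, minus strand), a secreted hyalectan-cleaving protease, stood lower in both states of GSTM1 KD. It was at 353 and 262 CPM in control KD at the basal level, against 164 and 128 CPM in GSTM1 KD. After TNF-α it was at 361 and 366 CPM in control KD and at 145 and 123 CPM in GSTM1 KD. No GSTM1 KD library reached a control KD library. The log2 fold change in edgeR's quasi-likelihood test was -1.07 (SE 0.198, adjusted p = 0.0331) in unstimulated cells and -1.46 (SE 0.124, adjusted p = 0.00981) after TNF-α. Adamts1 gave no call for TNF-α itself, with log2 fold changes of 0.24 (SE 0.177, edgeR adjusted p = 0.748) in control KD and -0.13 (SE 0.178, adjusted p = 0.9999) in GSTM1 KD. The basal and TNF-α libraries of GSTM1 KD overlapped for this gene, whereas in control KD both TNF-α libraries lay just above both basal libraries.

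Leaving out a library of GSTM1 KD removed the Adamts1 call. At the basal level the edgeR adjusted p became 0.116 without GSTM1 KD replicate 1 and 0.237 without GSTM1 KD replicate 2, with log2 fold changes of -1.26 and -0.92. After TNF-α the Adamts1 values were 0.0648 and 0.0598, with log2 fold changes of -1.58 and -1.35. With a GSTM1 KD library left out, only 1 and 3 genes of the whole table were called at the basal level and 0 and 94 after TNF-α, against 1524 and 2360 with all libraries. In those fits the lone GSTM1 KD library was assumed to vary like the control KD pair, which alone gave the spread. The mean chi-square per gene between replicates was 57.7 for control KD and 14.2 for GSTM1 KD in unstimulated cells, against 39.1 and 15.8 after TNF-α.

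Markers of other cells also differed between the knockdowns, not all in the direction of Adamts1. The summed level of 8 mural cell markers was 3386 to 3735 CPM in control KD against 1723 to 2041 CPM in GSTM1 KD without stimulation, and 2887 to 3024 against 1558 to 1825 CPM after TNF-α. Nearly all of that sum was Acta2, a smooth muscle actin that cultured glia can also express, which edgeR called lower in both states. Of the 5 mural genes that could be tested, Acta2 and Notch3 (log2 -0.11 in both states, not called) had differences below 0 and the other 3 above 0 in each state. Pdgfrb was called higher in GSTM1 KD after TNF-α (47.2 against 26.6 CPM). Rgs5, at 14 to 63 counts, leaned upward in GSTM1 KD at the basal level (2.15 against 0.70 CPM, log2 1.64, edgeR adjusted p = 0.100). After TNF-α Rgs5 was at 2.90 against 0.99 CPM, also not called. Kcnj8, Abcc9 and Vtn of the same list were at 0 to 2 counts. The sum of 8 fibroblast markers was 272 to 444 CPM in control KD against 149 to 266 CPM in GSTM1 KD without stimulation, and 257 to 431 against 158 to 271 CPM after TNF-α, so those groups overlapped after TNF-α, and Col1a2 was the 1 of 7 tested that was called lower. The 8 oligodendrocyte lineage markers summed to 659 to 742 against 524 to 535 CPM and to 577 to 651 against 467 to 472 CPM, with Olig2 called lower in both states and Olig1 after TNF-α. The endothelial sum was 7.98 to 10.2 against 4.89 to 5.36 CPM and 7.64 to 9.95 against 5.63 to 5.68 CPM, with Esam called lower in both (log2 -2.79 and -2.43) and Kdr, one of the 3 tested, at 1.39 and 1.25 (edgeR adjusted p = 0.124 and 0.0644). The microglial sum was 2.85 to 7.66 against 1.10 to 2.15 CPM and 2.23 to 7.93 against 1.78 to 3.42 CPM, with none of its 3 tested genes called. The 8 astrocyte markers summed to 2897 to 6631 CPM in control KD against 5802 to 8773 CPM in GSTM1 KD without stimulation, and 3015 to 6813 against 6031 to 8641 CPM after TNF-α, although S100b was called lower in both states (log2 -1.44 and -1.71). The 8 neuronal markers summed to 419 to 428 against 457 to 505 CPM and 396 to 399 against 428 to 480 CPM, with 0 of 5 tested called in edgeR or DESeq2 and 0 and 1 higher at an unadjusted p under 0.05. The 8 ependymal and choroid plexus markers summed to 110 to 172 against 142 to 159 and 95.8 to 114 against 131 to 150 CPM. List medians were 0.66 and 0.91, with 4 and 5 of the 6 tested genes above 0. Folr1, at 3 to 55 counts, was called higher in both states (log2 2.67 and 2.78). Foxj1, the most abundant of the list, had means of 133 against 134 CPM without stimulation and 98.3 against 123 CPM with it. Aqp1 and Otx2 leaned lower in GSTM1 KD at the basal level (log2 -0.40 and -0.50), neither called. Enrichment of the astrocytes included shaking off microglia and oligodendrocyte lineage cells and depleting CD11b-positive cells. The part of all these cell types in the Adamts1 difference was not tested, and in bulk RNA fewer cells of a type and less RNA per cell cannot be told apart.

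Adamts4 (ENSMUSG00000006403.13, chr1:171250421-171260637, plus strand) encodes the aggrecanase ADAMTS4 and was the member with the steepest TNF-α response in control KD. It had 6.00 and 5.01 CPM in control KD at the basal level and 12.5 and 18.5 CPM after TNF-α. In GSTM1 KD it had 4.38 and 3.36 CPM at the basal level and 5.40 and 5.86 CPM after TNF-α. The control KD TNF-α libraries stood above all 6 other libraries, which lay between 3.36 and 6.00 CPM.

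The Adamts4 response in control KD was 1.49 on the log2 scale (SE 0.243, edgeR adjusted p = 0.0246). In GSTM1 KD it was 0.54 (SE 0.254, adjusted p = 0.545). Tested directly, the difference of the Adamts4 responses was -0.95 (SE 0.350, unadjusted p = 0.0289, edgeR adjusted p = 1), so it did not pass over the whole table. GSTM1 KD was lower than control KD after TNF-α by -1.48 (SE 0.244, edgeR adjusted p = 0.0215), while at the basal level the difference was -0.51 (SE 0.257, adjusted p = 0.236). The TNF-α comparison between knockdowns and the control KD response share the control KD TNF-α libraries. The edgeR call of the Adamts4 response in control KD was lost with only the 4 libraries of that knockdown. It was also lost without control KD basal replicate 1, control KD basal replicate 2 or control KD TNF-α replicate 2. With any 1 library left out this response was 1.20 to 1.74. The call between knockdowns was lost without GSTM1 KD TNF-α replicate 1 or 2, and with any 1 library left out that difference was -1.74 to -1.17.

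Adamts5 (ENSMUSG00000022894.6, chr16:85856173-85901828, minus strand), the second major aggrecanase of cartilage, lies 53059 bases from Adamts1 with 1 non-coding gene between them. It was at 51.7 and 42.5 CPM in control KD against 46.9 and 42.8 CPM in GSTM1 KD without stimulation. With TNF-α the values were 70.1 and 84.7 against 64.2 and 66.3 CPM. Every TNF-α library lay above every basal library. The log2 response was 0.71 (SE 0.132, edgeR adjusted p = 0.0392) in control KD and 0.54 (SE 0.132, adjusted p = 0.108) in GSTM1 KD, and the difference of the Adamts5 responses was -0.17 (95% interval -0.61 to 0.26). Between knockdowns Adamts5 differed by -0.07 (SE 0.137) at the basal level and -0.27 (SE 0.118, edgeR adjusted p = 0.163) after TNF-α. With only the 4 libraries of that knockdown, or without control KD basal replicate 2 or control KD TNF-α replicate 2, the Adamts5 call in control KD was lost. With any 1 library left out the control KD response was 0.59 to 0.86. Without control KD TNF-α replicate 1 the Adamts5 difference between knockdowns after TNF-α was -0.40, in a fit whose spread came from the GSTM1 KD pair alone. Adamts1 and Adamts5 are neighbours on the chromosome, yet the first differed between knockdowns and the other did not pass.

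Adamts15, the remaining aggrecanase, had only 2 to 17 counts per library, and was too low after TNF-α to be tested between knockdowns. It was at 0.28 and 0.47 CPM in control KD and 0.73 and 0.75 CPM in GSTM1 KD at the basal level, a log2 difference of 1.00 (SE 0.442, edgeR adjusted p = 0.187).

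Of the other branches, Adamts2 (chr11:50602084-50807573, plus strand), the procollagen N-propeptidase, leaned upward in GSTM1 KD. At the basal level it was at 5.12 and 6.96 CPM in control KD and 9.44 and 11.4 CPM in GSTM1 KD, groups that did not overlap, with a log2 difference of 0.79 (SE 0.237, edgeR adjusted p = 0.0883) that did not pass. After TNF-α the libraries overlapped, at 6.46 and 9.69 against 8.64 and 13.3 CPM (log2 difference 0.42, SE 0.304). For the basal difference of Adamts2 DESeq2 gave an adjusted p of 0.0493, and edgeR 0.0164 with no filter on low counts. With any 1 library left out that difference was 0.58 to 1.02.

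Adamts6 (chr13:104287835-104496695, plus strand), a fibrillin-linked protease, was at 3.20 and 3.64 CPM in control KD and 2.40 and 2.35 CPM in GSTM1 KD at the basal level. After TNF-α it was at 4.35 and 3.37 CPM in control KD and 6.56 and 3.91 CPM in GSTM1 KD. The response in GSTM1 KD was 1.14 (SE 0.300, edgeR adjusted p = 0.14), that in control KD 0.18 (SE 0.292), and their difference 0.96 (SE 0.418, unadjusted p = 0.0549, edgeR adjusted p = 1). Adamts6 thus leaned in the opposite direction to Adamts4, and to Adamts9, which was selected for its weaker response in GSTM1 KD. With no filter on low counts its response in GSTM1 KD was called (log2 1.13, edgeR adjusted p = 0.00964). Its relatives Adamts10 and Adamts17 had 32 to 161 and 6 to 29 counts per library. Adamts10 was at 4.55 and 2.89 CPM in control KD basal and 2.84 and 1.93 CPM after TNF-α, and at 3.39 and 3.46 against 2.40 and 1.84 CPM in GSTM1 KD (log2 responses -0.64 and -0.68, SE 0.319 and 0.327). Adamts17 ranged from 0.26 to 1.40 CPM with log2 responses of -1.01 (SE 0.487) and -0.48 (SE 0.444). Neither gene passed in any comparison.

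Adamts12 varied more between replicates than between groups. It was at 1.5 and 4.61 CPM in the GSTM1 KD basal libraries and at 2.17 and 4.94 CPM in the GSTM1 KD TNF-α libraries, with the control KD libraries at 3.02 to 3.85 CPM in between. Its log2 difference between knockdowns had an SE of 0.519 at the basal level, the largest of the 9 tested genes there.

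Over the 9 genes other than Adamts9, 0 were higher and 1 was lower (Adamts1) in GSTM1 KD at the basal level, where 4.6% of 14899 tested genes were called higher and 5.62% lower. At an unadjusted p under 0.05, 1 of the 9 was higher there (Adamts2, which DESeq2 also called) and 1 lower. Over all 14899 genes, 4712 had an unadjusted p under 0.05 there, in either direction. After TNF-α 8 of the 9 could be tested, and 0 were higher and 2 lower (Adamts1 and Adamts4), against 7.26% higher and 8.92% lower of 14593 genes. At an unadjusted p under 0.05 and by DESeq2 0 of the 9 were higher too. Of the 14593 genes, 5286 had an unadjusted p under 0.05 in either direction. The median log2 difference of the ADAMTS genes was -0.13 (basal) and -0.09 (TNF-α), beside 0.00 and -0.01 over all tested genes. In control KD 2 of 9 rose with TNF-α (Adamts4 and Adamts5) and 0 fell, where 2.1% of 15332 genes rose and 0.528% fell. Also at an unadjusted p under 0.05 and by DESeq2, 0 of the 9 were lower. Of the 15332 genes, 1920 had an unadjusted p under 0.05 in either direction. In GSTM1 KD 0 of 9 passed in edgeR, where 2.35% rose and 0.294% fell. At an unadjusted p under 0.05 there were Adamts5 and Adamts6, beside 1670 of all 15332 genes in either direction. The median response of these genes was 0.18 for control KD and 0.07 for GSTM1 KD, beside -0.02 and -0.01 over all genes. DESeq2 called 1 of the 9 in GSTM1 KD, Adamts5 (adjusted p = 0.0348), so the edgeR count does not separate the Adamts5 response of the 2 knockdowns. For the difference of the responses 0% of genes were called after adjustment and 1.92% at an unadjusted p under 0.05, which among the 9 ADAMTS genes was Adamts4 alone. DESeq2 called 0 of the 9 for that difference.

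**Figure D2:**
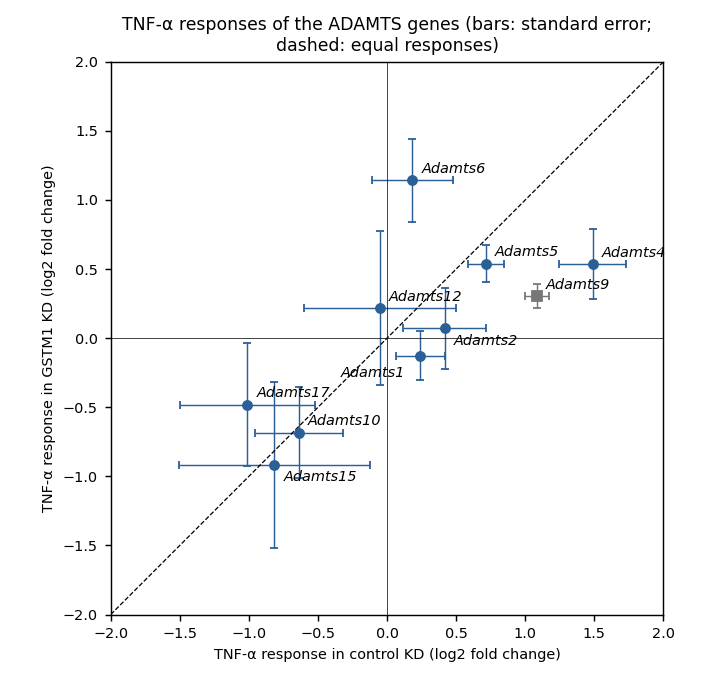
TNF-α response in control KD (horizontal axis) and in GSTM1 KD (vertical axis), as log2 fold changes, for each ADAMTS gene, with standard errors as bars and equal responses on the dashed line. Adamts4 lies below the line, at 1.49 against 0.54, and Adamts6 above it, at 0.18 against 1.14. Neither difference of responses passed adjustment. Adamts9, at 1.08 against 0.30, was selected for lying below the line and was given no test.

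Across the 8 libraries the log2 CPM of Adamts9 had a Pearson r of 0.93 with Adamts4 and 0.87 with Adamts5, against 0.51 with Adamts1, 0.34 with Adamts6, 0.17 with Adamts12 and 0.02 with Adamts2. It was -0.58 with Adamts10, -0.62 with Adamts15 and -0.75 with Adamts17. These values describe 8 libraries in 4 groups, and the libraries of a group share their knockdown and treatment. Over 15331 other genes, the patterns most like that of Adamts9 were those of Gm26809 (r = 0.977), Nup188 (0.975), Rhof (0.967), Lhfpl2 (0.965) and Dlc1 (0.964). They were ranked on the values for which Adamts9 was selected, so a weaker response in GSTM1 KD follows from the ranking. A high r does not give the size of a response, and that of Nup188 was log2 0.27 in control KD and 0.04 in GSTM1 KD. Dlc1, a GTPase-activating protein, was at 133 CPM in control KD basal and 134 CPM in GSTM1 KD basal, 259 CPM in control KD after TNF-α and 182 CPM in GSTM1 KD after TNF-α. Rhof, a small GTPase, had means of 1.52 CPM (basal) and 6.80 CPM (TNF-α) in control KD, against 1.06 and 2.38 CPM in GSTM1 KD.

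Of the 9 ADAMTS genes outside the 10, Adamts13, Adamts16, Adamts18 and Adamts19 had at most 13 counts in a library. Adamts8, another aggrecanase, was higher in GSTM1 KD, at 16.1 ± 1.79 against 4.87 ± 0.30 CPM (SD, n = 2) at the basal level (log2 1.72, SE 0.187, edgeR adjusted p = 0.0161) and at 20.2 ± 2.17 against 10.8 ± 1.29 CPM after TNF-α (log2 0.88, SE 0.169, adjusted p = 0.0291). It also rose with TNF-α in control KD (log2 1.15, SE 0.166, edgeR adjusted p = 0.0151). The difference of its responses was -0.82 (SE 0.228, unadjusted p = 0.00829, edgeR adjusted p = 1). Its direction in GSTM1 KD was thus opposite to that of Adamts1. Adamts14, a procollagen N-propeptidase like Adamts2, rose with TNF-α in both knockdowns, by 0.94 in control KD (SE 0.099, edgeR adjusted p = 0.00519) and by 0.90 in GSTM1 KD (SE 0.101, adjusted p = 0.00499). It was lower in GSTM1 KD after TNF-α, at 27.5 ± 0.55 against 43.5 ± 0.63 CPM (log2 -0.68, edgeR adjusted p = 0.019), and without stimulation the values were 14.7 ± 1.01 against 22.6 ± 0.83 CPM (log2 -0.62, adjusted p = 0.0512). Among 7 ADAMTS-like genes, which lack the protease domain, Adamtsl1 was higher in GSTM1 KD in both states (60.5 against 29.9 and 52.0 against 25.3 CPM), Adamtsl3 was higher after TNF-α (120 against 72.2 CPM, with 137 against 86.9 CPM and an adjusted p of 0.0691 before it) and Adamtsl5 was lower in both (4.41 against 9.87 and 4.25 against 9.69 CPM). For TNF-α 0 of these 7 passed in edgeR in control KD or GSTM1 KD (0 and 1 at an unadjusted p under 0.05, 0 by DESeq2).

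The list of 14 hyalectan substrates and hyaluronan matrix genes had 11 that could be tested. In GSTM1 KD edgeR called 4 of them lower at the basal level (Vcan, Hapln4, Has2 and Cd44) and 0 higher. After TNF-α it called 3 lower (Vcan, Has2 and Cd44) and 0 higher. Over all tested genes 5.62% and 8.92% were called lower, and 4.6% and 7.26% higher. Vcan was the only hyalectan that edgeR called. Bcan (brevican), Hapln1 and Tnr leaned higher at the basal level (log2 0.45, 0.64 and 0.98), none called. Differences were above 0 for 3 and 4 of the 11. Hapln4 was at -1.23 at the basal level and at -1.18 after TNF-α (edgeR adjusted p = 0.0862). At an unadjusted p under 0.05, 1 and 2 were higher, and DESeq2 called 1 higher in each state. The median log2 difference was -0.39 and -0.44. Vcan, which encodes the versican cleaved by ADAMTS1, ADAMTS4, ADAMTS5 and ADAMTS9, was at 18.8 ± 1.43 CPM in GSTM1 KD and 30.6 ± 0.41 CPM in control KD at the basal level (log2 -0.70, SE 0.131, edgeR adjusted p = 0.0341). After TNF-α Vcan was at 27.8 ± 2.46 against 47.2 ± 2.70 CPM (log2 -0.79, SE 0.124, adjusted p = 0.0194). Has2, a hyaluronan synthase, differed by -2.36 (SE 0.356, edgeR adjusted p = 0.0242) and -1.45 (SE 0.317, adjusted p = 0.0387), and Cd44, a hyaluronan receptor, by -0.85 and -0.67. With TNF-α, Vcan and Cd44 rose in control KD and Cd44 in GSTM1 KD, where DESeq2 called 3 of the list higher. The Vcan response was 0.62 in control KD (SE 0.110, edgeR adjusted p = 0.0325) and 0.56 in GSTM1 KD (SE 0.113, adjusted p = 0.0534), a difference of -0.06 (SE 0.157). Its control KD call was lost with scaling by library size only (adjusted p = 0.051), effective lengths as offsets (0.166), only the 4 libraries of that knockdown (0.155) or any one of those libraries left out (0.0939 to 0.145). Ncan, which encodes the brain hyalectan neurocan, did not pass, at 1323 ± 78.9 CPM in GSTM1 KD and 1764 ± 516 CPM in control KD at the basal level.

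Of 7 fibrillar procollagen genes, substrates of the ADAMTS2 branch, Col1a2 was the one lower in GSTM1 KD, in either state (log2 -1.13 and -0.99), Col5a2 was higher in both (1.00 and 0.96) and Col11a1 was higher after TNF-α (0.80, with 0.60 and an edgeR adjusted p of 0.144 before it). Col1a2 is also one of the fibroblast markers above. Of 10 fibrillin microfibril genes, Ltbp1 was higher (0.59 and 0.63) and Ltbp2 lower (-0.58 and -0.75) in GSTM1 KD, both being latent TGF-β binding proteins. For TNF-α 0 of these 17 genes passed in edgeR, although 3 in each knockdown had an unadjusted p under 0.05, and DESeq2 called 1 microfibril gene in control KD. Of the 11 other matrix proteins linked to ADAMTS proteases, 9 could be tested between knockdowns, and Fbln2 was lower at the basal level (log2 -1.35), and Fbln2, Bgn and Fmod were lower after TNF-α (-1.31, -0.77 and -0.64). At the basal level Bgn was at -0.79 (edgeR adjusted p = 0.058) and Fmod at -0.52 (adjusted p = 0.102).

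Among 8 inhibitors and clearance genes, Timp1 and Timp4 were lower in GSTM1 KD at the basal level (log2 -1.57 and -1.20) and after TNF-α (-1.57 and -1.17). Timp3, the tissue inhibitor that acts most strongly on ADAMTS4 and ADAMTS5, fell with TNF-α in control KD from 1486 ± 81.5 to 902 ± 3.94 CPM (log2 -0.72, SE 0.093, edgeR adjusted p = 0.0107). In GSTM1 KD it went from 2020 ± 1.00 to 1507 ± 33.4 CPM (log2 -0.42, SE 0.093, adjusted p = 0.0727), and the difference of the responses was 0.30 (SE 0.131, unadjusted p = 0.0572). For TNF-α in GSTM1 KD, DESeq2 called 1 gene of this list lower where edgeR called 0. Timp3 was higher in GSTM1 KD than in control KD after TNF-α (log2 0.71, SE 0.116, edgeR adjusted p = 0.0205), and at the basal level the difference was 0.44 (SE 0.130, adjusted p = 0.0848). Lrp1, the receptor that clears ADAMTS4 and ADAMTS5 by endocytosis, was also higher in GSTM1 KD after TNF-α (log2 0.47, SE 0.114, edgeR adjusted p = 0.047), with 0.48 (SE 0.169, adjusted p = 0.124) in unstimulated cells. Among 8 genes of activation and secretion, the convertases Furin and Pcsk6 were higher in GSTM1 KD at the basal level (log2 0.57 and 0.69) and after TNF-α (0.58 and 0.70). Pcsk7, a convertase of the same list, was at -0.67 (edgeR adjusted p = 0.0555) and -0.57 (adjusted p = 0.0607), and Sdc4 at -0.44 and -0.67 (adjusted p = 0.0886 and 0.0619). EdgeR called 0 of this list lower in either state, with 2 lower at an unadjusted p under 0.05 in each, and DESeq2 called 2 lower without stimulation and 1 with TNF-α. Sdc4, a syndecan involved in ADAMTS5 activity, rose with TNF-α by 1.09 in control KD and 0.88 in GSTM1 KD.

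With a library left out, the lone library of its group was assumed to vary like the other groups of the fit, and between knockdowns without a GSTM1 KD library few genes of the whole table passed, as given above. The counts here cover the lists of ADAMTS relatives, substrates, inhibitors and activators, without the 10 genes, Gstm1, the TNF-α response list and the cell markers. Between knockdowns, 0 of the 16 genes of those lists called at the basal level and 0 of the 22 called after TNF-α passed in edgeR with either GSTM1 KD library of that state left out (adjusted p from 0.0833 to 0.43 and from 0.0648 to 0.374), and none of them changed direction. Their log2 fold changes moved by a median of 0.12 and 0.14 at the basal level and 0.10 and 0.10 after TNF-α, and by at most 0.60 and 0.59. With a control KD library left out, the GSTM1 KD pair alone gave the spread, so those fits do not show whether the calls hold. None of these genes changed direction there. Their log2 fold changes moved by a median of 0.12 and 0.12 at the basal level and 0.09 and 0.09 after TNF-α. Of the 6 genes of those lists called for TNF-α in control KD, 1 passed without control KD basal replicate 2, 2 without control KD basal replicate 1, 2 without control KD TNF-α replicate 2 and 5 without control KD TNF-α replicate 1, with Adamts14 among them each time. With only the 4 libraries of that knockdown all 6 lost their calls (adjusted p from 0.0645 for Adamts14 to 0.245 for Cd44). Of the 3 genes of those lists called in GSTM1 KD, Adamts14 passed without GSTM1 KD TNF-α replicate 2, and 0 passed without each of the other GSTM1 KD libraries. DESeq2 differed from edgeR by at most 2 genes per list, direction and comparison.

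**Figure D3:**
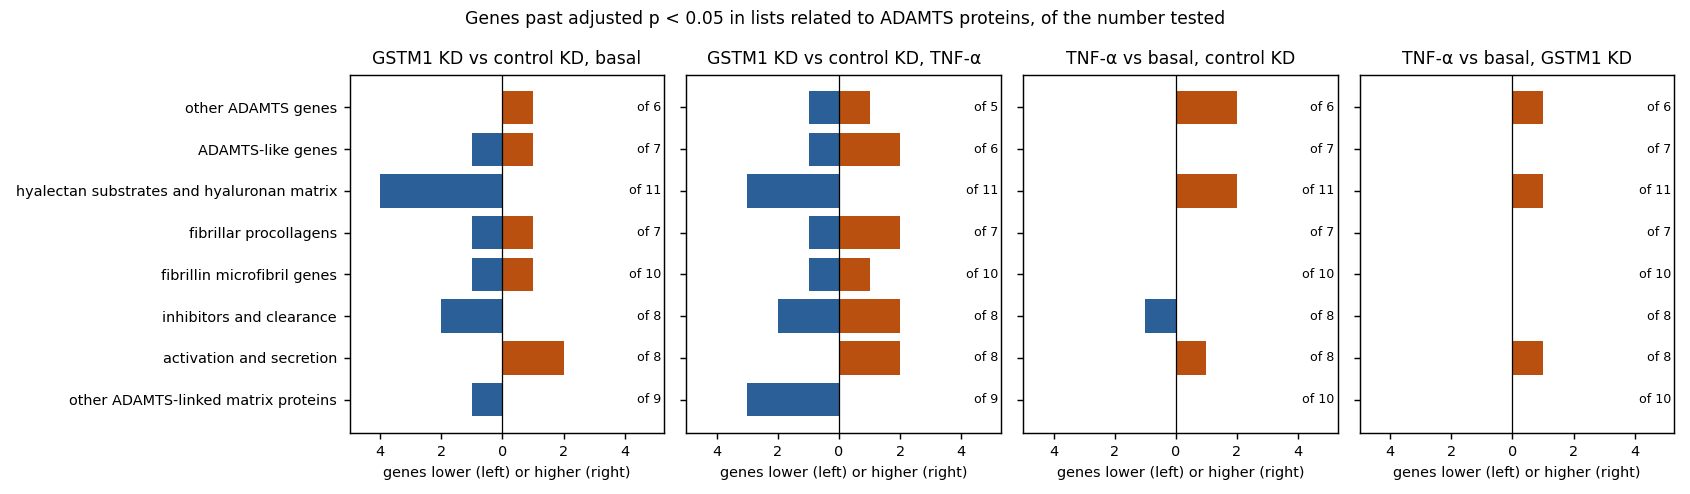
Number of genes called lower (blue, left of 0) or higher (orange, right of 0) at an adjusted p of 0.05 in 8 lists related to ADAMTS proteins (vertical axis) in 4 comparisons, beside the number of genes tested. The hyalectan and hyaluronan list had 4 and 3 genes lower and 0 higher between knockdowns, Vcan being the only hyalectan among them. The activation list had 2 higher in each state.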

How the data were processed

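RNA was extracted from cultured astrocytes and libraries were made with a kit that keeps strand. The authors aligned reads with STAR 2.5.4b and quantified them with RSEM 1.3.0 on GRCm38, per the submitters' processing notes, and deposited expected counts, TPM and effective lengths per gene and library; the gene annotation release is not given in the sources used here. Deposited expected counts were rounded to whole numbers. TMM scaling and edgeR 4.0.16 (R 4.3.3) gave CPM and quasi-likelihood tests, after its filter for low counts by group, with Benjamini-Hochberg adjustment over all genes tested and a threshold of 0.05. Knockdowns were compared in the 4 libraries of each state. TNF-α responses and their difference came from 1 fit of all 8 libraries with a coefficient per group. Deposited TPM were used only for levels between genes, and the other deposited values, the effective lengths, as offsets in an alternative.

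The 10 genes and the lists were chosen with earlier results of these data known. Named were the 10 genes, Gstm1, up to 4 called genes per list and comparison by smallest p, the 5 genes most correlated with Adamts9 (log2 CPM with a prior count of 2), and marker genes by level. Genes sharing exons with Adamts9, and Ncan, were added after values were seen. Gene positions are from GENCODE M21, in which 54079 of the 54146 identifiers were found without their version. Alternatives were DESeq2 1.42.0, other scalings and filters, effective lengths, the replicate number as a block, other sets of libraries and leaving out each library. The scripts were tested on simulated data. With 2 biological replicates per group, p-values measure only the spread between those samples. Figures were drawn with matplotlib 3.10.9.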

Additional observations from a re-analysis of the deposited data

How the results depend on the processing

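With 2 libraries per group, calls near the threshold moved with the setting. The count of members called (Adamts9 apart) was 1 between knockdowns at the basal level and became 2 with DESeq2, 2 with no filter on low counts and 2 with the replicate block, by adding Adamts2. Leaving out each library in turn gave 0 to 2. After TNF-α it was 2, and 0 to 3 with libraries left out. For TNF-α in control KD it was 2, became 0 with only the 4 libraries of that knockdown, and was 0 to 2 with libraries left out. For TNF-α in GSTM1 KD it was 0, and became 1 with DESeq2, 2 with no filter (Adamts5 and Adamts6) and 1 with only the 4 libraries of that knockdown. For the difference of the responses it was 0 under every alternative run.

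The replicate numbers are shared between groups, but nothing says what they mark and each comparison has 2 pairs. Deviations of same-numbered libraries correlated at 0.16 to 0.58 across 15332 genes. With the replicate block 4712 genes were called between knockdowns at the basal level in place of 1524, 4302 in place of 2360 after TNF-α, and 988 and 808 in place of 403 and 406 for TNF-α in control KD and GSTM1 KD. No other count of members changed with the block.

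Several small differences changed direction, and the cause was not tested. Between knockdowns after TNF-α, Adamts12 was at -0.065 with the replicate block and -0.0090 with effective lengths as offsets, against 0.02. With those offsets the Adamts17 response in GSTM1 KD was 0.54, and the difference of the Adamts10 responses 0.41. With a library left out, the difference between knockdowns at the basal level ran from -0.21 to 0.075 for Adamts5, -0.42 to 0.24 for Adamts10 and -1.25 to 0.38 for Adamts12. After TNF-α it ran from -0.0027 to 0.74 for Adamts6, -0.44 to 0.13 for Adamts10 and -0.68 to 0.52 for Adamts12. The control KD response ran from -0.021 to 0.37 for Adamts6 and -0.22 to 0.12 for Adamts12. The GSTM1 KD response ran from -0.29 to 0.065 for Adamts1, -0.27 to 0.35 for Adamts2 and -0.48 to 1.23 for Adamts12. The difference of responses ran from -0.42 to 0.28 for Adamts10, -0.88 to 1.10 for Adamts15 and -0.44 to 1.27 for Adamts12.

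Over all genes, scaling by library size only turned the split of calls between knockdowns from 686 higher and 838 lower to 870 and 784 at the basal level, and from 1059 and 1301 to 1350 and 1163 after TNF-α. Calls at the basal level came to 2522 with DESeq2, 3957 with no filter and 2762 from all 8 libraries, and after TNF-α to 4540 with no filter. For TNF-α in control KD they came to 761, 1255 and, with only 4 libraries, 72, and in GSTM1 KD to 647, 1050 and 691. For the difference of the responses DESeq2 called 27 genes and edgeR with no filter 134.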
